A study of Mus musculus with 24 samples.

Results

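The proteasome and immunoproteasome genes of the mouse were followed in oligodendrocyte (OL) and total RNA of the contused spinal cord. The members were the protein-coding genes whose symbol begins with Psma to Psmg and a number, 50 of the 21965 genes in the count table. All 50 passed the filter of at least 10 counts summed over the 24 libraries. They comprised 7 alpha and 7 constitutive beta subunits of the 20S core, 3 immunosubunits (Psmb8, Psmb9 and Psmb10), 3 genes of the PA28 alpha and beta type (Psme1, Psme2 and its near copy Psme2b), 9 subunits of the 19S base and 8 of the 19S lid, 3 other regulators (Psme3, Psme4 and Psmf1), 7 assembly chaperones and 2 tissue-restricted core subunits (Psma8 and Psmb11). Psmc3ip, a meiotic recombination factor, fits the naming rule but encodes no proteasome part.

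All mice were OL-Ribotag animals: they carried an inducible Cre directed to mature OLs and an HA-tagged Rpl22 allele, and had received tamoxifen, so that ribosomes of Cre-expressing cells, mostly mature OLs, could be pulled down through the tag. Naive mice had no injury. Those examined at 2, 10 and 42 days post-injury (dpi) had a 50 kdyn contusion at thoracic level 9. All were labelled female and, by the labels, were 10 to 12 weeks old at injury, whereas the study's methods give a younger age at injury. As the study describes, naive and dpi 42 tissue was collected on the same day after tamoxifen, so naive mice were older than those at dpi 2 and dpi 10, and this age difference cannot be told apart from the injury at these times. Tissue of 2 mice was pooled, with 3 such pools in each of the 4 groups, and OL polysome RNA and total spinal cord RNA were sequenced from every pool (n = 3 per group and kind of RNA).

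The proteasome degrades proteins marked with ubiquitin. Its 20S core is a stack of alpha and beta rings, and the beta subunits Psmb5, Psmb6 and Psmb7 carry the proteolytic sites. The 19S cap binds ubiquitin chains, removes them and unfolds the substrate with its ring of ATPases. Interferons induce the immunosubunits, which take the places of the constitutive catalytic subunits in newly built cores (Psmb8 for Psmb5, Psmb9 for Psmb6, Psmb10 for Psmb7), and the PA28 activator encoded by Psme1 and Psme2. This immunoproteasome is known for producing peptides for MHC class I. In the healthy spinal cord its level in neurons and OLs is low, and it is abundant in immune cells.

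Counts per library ran from 25840127 to 32987841, so 3 counts, the limit that a count of 0 allows, equal 0.084 to 0.127 CPM (a gene's count relative to the library total, scaled by TMM factors; counting error only). Several libraries stood apart from their labels or groups. The third naive OL library had a summed level of 4 Schwann cell markers of 634 CPM against 1.6 and 1.73 CPM in the other 2, and the total RNA of its pool was at 174 CPM. Injured OL libraries held 206 to 1520 CPM of these markers. In the third naive OL library the sum of 5 astrocyte markers was 4030 against 931 and 733 CPM. Both libraries of the second pool at dpi 2 held 2414 to 2604 counts of 4 Y-linked genes although the mice were labelled female, against at most 13 in every other library. The labels of 2 libraries at dpi 42 contradicted each other on the kind of RNA: each title names the other kind than the description. The kind was taken from the description and the pool from the tissue numbers. The sum of 8 OL markers was 23300 CPM in the one taken as total RNA (22300 and 21100 in the other total RNA libraries). In the one taken as OL it was 103000 CPM (115000 and 137000 in the other OL libraries), so the marker levels match the kinds used. OL markers such as Mbp and Mog were enriched in the naive OL libraries (8 of 8 called, median log2 2.69). The p-values of changes over time measure the spread between pools. Those of OL enrichment and its change measure the spread, between pools, of the difference between OL and total RNA of the same pool. In bulk RNA fewer cells of a type and less RNA per cell cannot be told apart.

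Naive OLs contained mRNA of every constitutive subunit at a moderate level and very little of the immunosubunits. Per kb of annotated exon, the 14 constitutive core subunits ranged from 12.7 CPM (Psma3) to 95.5 CPM (Psmb2) in naive OL libraries, with a median of 37.1, and the 17 cap subunits from 12.9 (Psmd11) to 138 (Psmc5, an ATPase of the base) with a median of 38. The immunosubunits were at 0.0871 (Psmb9), 0.321 (Psmb8) and 4.86 (Psmb10) CPM per kb on the same scale. Psme2, the beta subunit of PA28, was the highest of the 5 immunoproteasome genes with 12.6 CPM per kb. Total RNA of naive tissue had the same order of classes, with medians of 29.6 for the core, 30.7 for the cap and 0.925 for the immunosubunits. Psma8, the core subunit of male germ cells, had 0 to 4 counts in OL libraries and 1 to 50 in total RNA, and Psmb11, the core subunit of the thymic cortex, had 0 counts in all OL libraries and 4 and 13 counts in 2 total RNA libraries. No fold changes are given for these 2 genes.

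Psmb8, which encodes the chymotrypsin-like immunosubunit, was near the floor in naive OLs and clearly detected after injury. It was at 0.252, 0.254 and 2.75 CPM in the 3 naive OL libraries, the last of these being the library with Schwann cell and astrocyte transcripts. At dpi 2 it was at 7.18, 13.9 and 10.9 CPM, at dpi 10 at 6.02, 9.59 and 9.97, and at dpi 42 at 10.1, 10.1 and 7.55. Every injured OL library lay above every naive one. Its log2 fold change from naive was 3.26 ± 0.54 (SE, n = 3, q = 5.1e-05) at dpi 2, 2.94 ± 0.53 (q = 0.0005) at dpi 10 and 3.06 ± 0.53 (q = 0.00016) at dpi 42, where q is the p-value of the edgeR quasi-likelihood test adjusted over all 17167 genes tested. Without the third naive library the changes were 5.37, 5.05 and 5.17 (q = 5.2e-09, 3.7e-08 and 2.6e-08). Total RNA began at 3.21, 2.93 and 3.23 CPM and reached 25.7, 29.4 and 19 CPM at dpi 2, 31.2, 36 and 26.1 at dpi 10, and 34.5, 21.6 and 32.6 at dpi 42, a log2 change of 2.98 ± 0.50 (q = 7e-05), 3.31 ± 0.51 (q = 3.6e-05) and 3.24 ± 0.51 (q = 8.8e-05).

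Psmb9, the neighbour of Psmb8 in the MHC region (9956 bp lie between them on chromosome 17), was not detected in 2 of 3 naive OL libraries. These had 0 counts and the third had 25 counts (0.956 CPM). After injury its level was 0.983, 2.03 and 1.57 CPM at dpi 2, 2.45, 3.69 and 2.55 at dpi 10, and 3.5, 1.9 and 3.29 at dpi 42, so each injured library was above each naive one. The fitted log2 changes were 2.21 ± 0.77 (q = 0.029), 3.13 ± 0.78 (q = 0.0073) and 3.13 ± 0.78 (q = 0.0037). The call at dpi 2 was lost without the first or second naive library (log2 1.64, q = 0.09 and 0.091) or without the second dpi 2 library (1.95, q = 0.074). Against the 2 naive libraries at 0, with a floor of 3 counts per library, Psmb9 was at least 12.1-fold higher at dpi 2 and at least 22.9-fold higher at both dpi 10 and dpi 42. In total RNA it went from 1.11, 0.742 and 1.84 CPM in naive tissue to 7.53, 6.13 and 5.41 at dpi 2, 9.46, 12.1 and 10.1 at dpi 10, and 6.7, 6.8 and 7.54 at dpi 42, with log2 changes of 2.36, 3.09 and 2.51 that all passed q = 0.05. Of its exon bases 5.79% are shared with Tap1 on the opposite strand, and strandedness of the counting is not given in the sources used here. Psmb8 shares 14.7% with Gm20496 and Psmb7 11.8% with Nek6, both on the opposite strand. Psmb5 shares 12.1% with Mir686 on the same strand.

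Psmb10, the trypsin-like immunosubunit, was the most abundant of the 3 and rose in OL libraries with a dip at dpi 10. Naive OL libraries held 5.08, 4.91 and 14.9 CPM, those at dpi 2 25.5, 23.1 and 38.4, those at dpi 10 13.2, 17.5 and 13.7, and those at dpi 42 24.5, 29.9 and 17.8. The groups at dpi 2 and 42 did not overlap with naive, while the dpi 10 libraries overlapped with the third naive one. The log2 change was 1.80 ± 0.31 (q = 7.4e-05) at dpi 2 and 1.53 ± 0.30 (q = 0.00055) at dpi 42, and without the third naive library it was 2.54 and 2.27. At dpi 10 it was 0.83 ± 0.30 and did not pass (q = 0.062), but it was 1.56 with q = 4.3e-05 without the third naive library. The decrease from dpi 2 to dpi 10 passed (log2 -0.97 ± 0.30, q = 0.022) but not with an offset for gene length and GC content (-0.69, q = 0.077). In total RNA, 22.3, 24.3 and 25.4 CPM in naive tissue compared with 35, 40.7 and 39.4 at dpi 2, 36.8, 38 and 33.7 at dpi 10 and 30.7, 36.7 and 36.5 at dpi 42. These groups did not overlap with naive, yet the log2 changes of 0.68, 0.59 and 0.53 did not pass (q = 0.077, 0.14 and 0.22). The third naive OL library enters the shared estimate of spread. Without it Psmb10 was among the 5 immunoproteasome genes called higher in total RNA at dpi 2, 10 and 42.

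The PA28 subunits rose less steeply. Psme1 (PA28 alpha) was at 10.3, 10.3 and 19.1 CPM in naive OL libraries, at 26.4, 26.7 and 53.5 at dpi 2, at 19.9, 24.7 and 20.4 at dpi 10, and at 32.8, 32.9 and 14.1 at dpi 42. Its log2 change was 1.42 ± 0.29 (q = 0.00053) at dpi 2 and 1.00 ± 0.29 (q = 0.011) at dpi 42, although the third dpi 42 library was within the naive range, and 0.71 ± 0.29 at dpi 10 (q = 0.099; 1.07, q = 0.014 without the third naive library). The call at dpi 42 was lost when the first or second naive or the first or second dpi 42 library was left out (log2 0.82 to 0.85, q = 0.056 to 0.06) and with an offset for gene length and GC content (0.44, q = 0.24). Psme2 (PA28 beta) was even among replicates: 22.1, 25.8 and 19 CPM in naive OLs became 45.5, 47.6 and 50.7 at dpi 2, 30.9, 35.6 and 30.6 at dpi 10 and 50.5, 40.3 and 34.4 at dpi 42. No injured library reached down to the naive ones, and all 3 log2 changes passed (1.10 ± 0.14, q = 1.5e-06; 0.54 ± 0.13, q = 0.0075; 0.90 ± 0.14, q = 3.1e-05). With the offset the value at dpi 2 passed q, and those at dpi 10 (0.22, q = 0.24) and dpi 42 (0.29, q = 0.071) did not. In total RNA Psme1 changed by log2 1.01, 1.29 and 1.06 and Psme2 by 1.21, 1.06 and 0.69 at dpi 2, 10 and 42, all with q under 0.05. Psme2b had only 7 to 61 counts per library and did not pass at any time; it can share reads with Psme2.

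**Figure D1:**
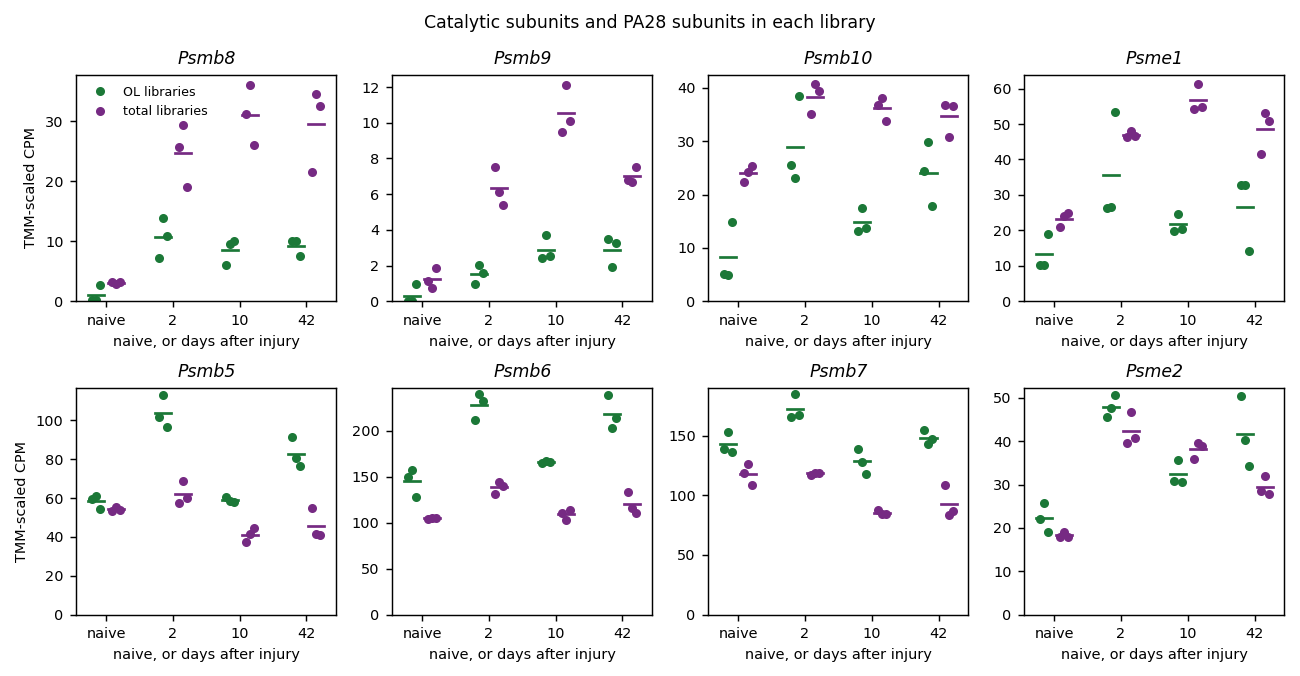
CPM scaled by TMM (vertical axes, linear from 0) of the 3 immunosubunits, their 3 constitutive counterparts, Psme1 and Psme2 in each library of naive tissue and at 2, 10 and 42 days after injury; points are libraries, green for OL and purple for total RNA, and lines are means of 3. Psmb8 in OL libraries goes from 0.252, 0.254 and 2.75 CPM to between 6.02 and 13.9 CPM after injury, and the third naive OL library is the high point for Psmb8, Psmb9, Psmb10 and Psme1.

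The immunoproteasome levels in OL libraries were compared with the content of other cells. The summed level of 12 microglia and macrophage markers, none of them at 0 in all libraries of a group, averaged 22.2 CPM in naive OL libraries (range 18.3 to 27.8) and 137 (113 to 155), 358 (322 to 377) and 306 (235 to 383) at dpi 2, 10 and 42. In total RNA it was 312, 2240, 5980 and 4040 CPM. The OL level was 7.14%, 6.13%, 5.99% and 7.59% of the total RNA level for these markers. For Psmb8 that share was 34.7%, 43.2%, 27.4% and 31.3% in naive tissue and at dpi 2, 10 and 42, and for Psmb10 it was 34.6%, 75.6%, 40.9% and 69.5%. The naive shares of both rested largely on the third pool. Psmb8 was there at 2.75 CPM in OL and 3.23 in total RNA, against 0.252 and 3.21, and 0.254 and 2.93, in the other pools. Psmb10 was there at 14.9 and 25.4 CPM, against 5.08 and 22.3, and 4.91 and 24.3. Markers of T and NK cells were nearly absent from OL libraries (summed level at most 2.47 CPM over 9 genes, of which 6, 8, 3 and 6 were at 0 in all 3 libraries of naive, dpi 2, dpi 10 and dpi 42). Astrocyte markers varied between replicates. Psme1 and Psmb10 were highest in the library with the highest astrocyte sum in naive tissue (4030 CPM) and at dpi 10 (5100 CPM). The same held at dpi 2 (6490 CPM, with 811 and 2220 in the others). At dpi 42 both were lowest in the library with 1620 CPM (8390 and 10600 in the others). Other genes differed: at dpi 2 Psmb8 and Psmb9 were highest in the library with 811 CPM, and Psme2 was lowest in the naive library with 4030 CPM. The OL level of the astrocyte sum was 74.2%, 59.4%, 49.9% and 125% of the total RNA level in naive tissue and at dpi 2, 10 and 42. The sum did not follow the median of the 5 markers. Their median log2 change from naive in OL libraries was -0.66, -0.62 and 0.33 at dpi 2, 10 and 42. Their median OL enrichment over total RNA was log2 -0.73 in naive tissue and -1.2, -1.06 and -0.35 at these times. The sum of 5 endothelial markers, none of them at 0, averaged 4.7 CPM in naive OL libraries (4.33 to 5.09) and 13.2 (10.8 to 17.8), 13.1 (7.81 to 16.2) and 11.3 (8.21 to 17.3) after injury, with 4, 3 and 3 of the 5 called higher, and was 4.66% to 9.57% of the total RNA level. The paper states that the Cre line is also active in Schwann cells. The sum of 4 Schwann cell markers averaged 212 CPM in naive OL libraries (1.6 to 634, the last in the third library). At dpi 2, 10 and 42 it averaged 383 (206 to 656), 1090 (852 to 1520) and 1270 (1200 to 1390). In total RNA it averaged 59.7 CPM in naive tissue and 124, 246 and 436 after injury. The part of astrocyte, endothelial, myeloid or Schwann cell RNA in the rise of these genes was not tested.

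Against these genes, the constitutive core showed a small rise in OLs at dpi 2 that was shared by its subunits. The summed level of its 14 subunits was 1390, 1460 and 1280 CPM in naive OL libraries, 2110, 2170 and 2100 at dpi 2, 1460, 1370 and 1370 at dpi 10, and 1920, 1730 and 1610 at dpi 42. All libraries of dpi 2 and dpi 42 lay above all naive ones, and those of dpi 10 overlapped with them. At dpi 2 the difference was positive for 14 of 14 subunits, with a median log2 of 0.67 against 0.00 over all genes tested, 14 passed q under 0.05, and 10 were called, which also requires a log2 change past 0.5. Over all genes, 15.9% were called higher at dpi 2 and 16.4% lower, and 18.4% and 20% passed q alone with a higher and a lower level, while 45% had a log2 change above 0. Among all 50 members 24 were called higher and 1, Psmf1, lower, and 35 and 1 passed q alone. All 3 dpi 2 libraries exceeded all 3 naive ones for 14 of 14 core subunits and for 18.3% of all genes.

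Psmb5, the constitutive chymotrypsin-like subunit, was at 59.3, 61 and 54.4 CPM in naive OL libraries and at 102, 113 and 96.7 at dpi 2. It returned to 60.7, 58.4 and 57.8 at dpi 10 and stood at 91.5, 80.6 and 76.7 at dpi 42. Thus dpi 2 and dpi 42 were separate from naive, and dpi 10 was not. The log2 change was 0.84 ± 0.11 (q = 5.1e-06) at dpi 2, 0.02 ± 0.11 (q = 0.99) at dpi 10 and 0.51 ± 0.11 (q = 0.0014) at dpi 42. Psmb6, the caspase-like subunit, had 150, 157 and 128 CPM in naive OLs, 212, 240 and 233 at dpi 2, 165, 167 and 166 at dpi 10, and 239, 203 and 214 at dpi 42 (log2 0.65 ± 0.09, q = 6.6e-06; 0.20 ± 0.09, q = 0.14; 0.59 ± 0.09, q = 3.8e-05). Psmb7, the trypsin-like subunit, moved least of the 3: 139, 153 and 136 CPM in naive OLs, 166, 185 and 167 at dpi 2, 139, 128 and 118 at dpi 10, and 155, 143 and 147 at dpi 42. Its log2 change of 0.27 ± 0.10 at dpi 2 passed q (0.028) but not the limit of 0.5, and 0.06 at dpi 42 did not pass (q = 0.73). The other core subunits at dpi 2 were led by Psma1 (45.2 ± 3.9 to 92.4 ± 6.4 CPM, SD, n = 3; log2 1.03, q = 5.4e-06) and Psmb4 (151 ± 13 to 289 ± 22 CPM; log2 0.94, q = 4.6e-07).

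These values depended strongly on a correction for gene length and GC content. With an offset for length and GC fitted to each library the median of the core at dpi 2 fell from log2 0.67 to 0.23, with 6 subunits significantly higher and 3 lower in place of 14 higher. Psmb5 then had a log2 change of -0.39 (q = 0.012), Psma6 of -0.49 in place of 0.34, and Psmb2 of -0.46 in place of 0.46. Psma1 (0.85), Psma4 (0.50) and Psmb4 (0.33) stayed positive. The immunoproteasome genes kept their direction at dpi 2 with the offset: Psmb8 3.06, Psmb9 2.06, Psmb10 1.09, Psme1 0.88 and Psme2 0.45, all with q under 0.05. Without the third naive OL library the core median at dpi 2 was 0.58, with 13 of 14 passing q.

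**Figure D2:**
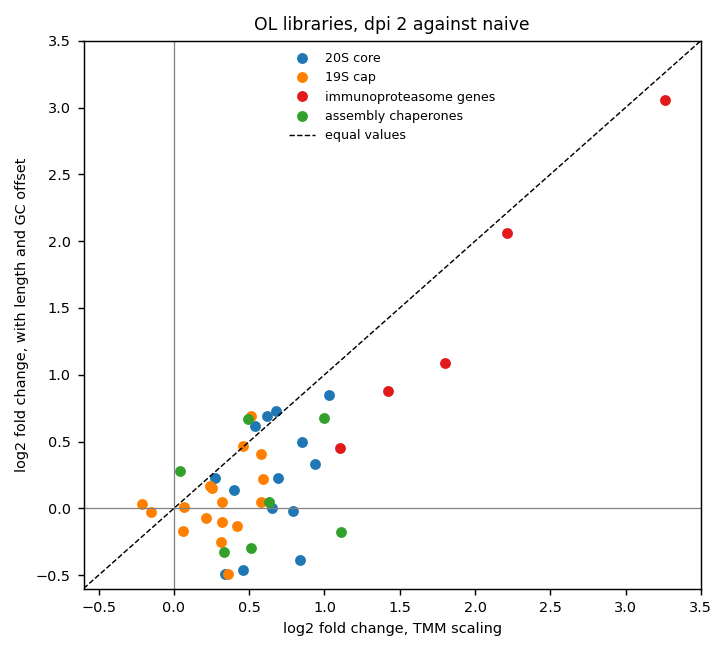
Log2 fold change of each gene in OL libraries at dpi 2 against naive with TMM scaling (horizontal) and with an added offset for gene length and GC content (vertical); colours mark the class and the dashed line equal values. Most genes of the core and cap fall below the line and several below 0 (Psmb5 at -0.39), while the 5 immunoproteasome genes stay between 0.45 and 3.06.

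The 19S cap followed the core at a smaller size. Its 17 subunits summed to 2630, 2720 and 2410 CPM in naive OL libraries, to 3180, 3110 and 3160 at dpi 2, 2510, 2300 and 2250 at dpi 10 and 2650, 2600 and 2610 at dpi 42. The dpi 2 libraries were above all naive ones and the dpi 42 libraries were inside the naive range. At dpi 2, 10 of 17 passed q and were higher, none was significantly lower, and 4 were called, with a median log2 of 0.32: Psmd4, a ubiquitin receptor (0.59 ± 0.09, q = 3.3e-05), and the lid subunits Psmd7 (0.58), Psmd13 (0.58) and Psmd11 (0.51). Psmd2, a scaffold of the base, had the smallest change among the higher ones (292 ± 4.0 to 344 ± 8.7 CPM; log2 0.24, q = 0.014), and Psmd1, the other scaffold, was at log2 -0.21 (q = 0.077). With the length and GC offset the cap median was 0.03, with 3 subunits significantly higher and 2 lower.

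Of the 7 assembly chaperones 5 passed q at dpi 2 and 4 were called. Psmg4 (log2 1.11 ± 0.28, q = 0.0034) and Psmg3 (1.00 ± 0.27, q = 0.0055), which form a pair that guides alpha ring assembly, were at low levels of 6.95 and 8.53 CPM in naive OLs. Psmg2 (0.63) and Psmg1 (0.51), the other pair, also passed, and the base chaperones Psmd5 (0.04) and Psmd10 (0.33) did not. With the length and GC offset the chaperone median fell from 0.51 to 0.05 and 1 of the 7 passed q and was called, with Psmg4 at -0.18, Psmg1 at -0.30, Psmg2 at 0.05 and Psmg3 at 0.68 (q = 0.051). Without the third naive OL library 3 of the 7 passed q, and Psmg1 (0.54, q = 0.068) and Psmd9 (0.39, q = 0.061) did not. Pomp, the maturation factor that joins core precursors, is no member but belongs to the same step, and its log2 change of 1.06 ± 0.12 (q = 4.9e-07) at dpi 2 was as large as those of the core.

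Among the other regulators, Psmf1 (PI31, a core-binding protein that inhibits it in vitro) went the opposite way. It was at 46.6, 46.4 and 42.4 CPM in naive OL libraries and at 28.8, 28.4 and 38.3 at dpi 2, a log2 change of -0.50 ± 0.12 (q = 0.0023) that lay at the limit of 0.5 for a call and was -0.46 with DESeq2 size factors, -0.33 with library sizes alone or the offset, and -0.43 without the second dpi 2 library. With 45.7, 43 and 52 CPM at dpi 10 it was higher again at dpi 10 (dpi 10 against dpi 2, log2 0.56, q = 0.0019). Psme3, the nuclear PA28 gamma, rose from 52.7, 36.3 and 53.9 to 64, 63.7 and 79 CPM at dpi 2 (log2 0.53, q = 0.002). Psme4 (PA200, an activator linked to histone degradation) showed its change late: 30.9, 34.4 and 27.6 CPM in naive OLs compared with 11.9, 19.5 and 25.5 at dpi 42 (log2 -0.71 ± 0.19, q = 0.0071). The lowest of these, 11.9 CPM, came from a library with contradictory labels, and with the offset the value was -0.19 (q = 0.43).

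Between dpi 2 and dpi 10 the OL levels fell back. 19 of 50 members were called lower and 1 higher at dpi 10 than at dpi 2, when 7.92% of all genes were called lower and 9.55% higher. These 19 were 9 core subunits (median log2 of the 14, -0.66), 6 cap subunits (median of the 17, -0.42), Psmg3, Psmg4, Psmb10 and Psme2. Psmb4 fell by 0.95 on the log2 scale (q = 1.3e-06) and Psmb5 by 0.82 (q = 1.9e-05), whereas Psmb8 (-0.32, q = 0.71) and Psmb9 (0.92, q = 0.38) did not pass. With the length and GC offset 9 members were called in this comparison, 6 of them core subunits, and the core median was -0.41. Against naive, only Psmb8, Psmb9 and Psme2 were called at dpi 10, 3 of 50 members where 8.55% of all genes were called higher and 5.55% lower, and the core median was 0.00. Psmc5 (-0.28) and Psmd2 (-0.22) passed q and were lower, where 8.59% of all genes were.

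At dpi 42, 10 members were called higher in OLs than in naive and 2 lower, where 13.7% of all genes were called higher and 13% lower. The 10 were the 5 immunoproteasome genes, Psmb5, Psmb6, Psma4 (log2 0.52), Psmg2 (0.68) and Psmg3 (0.77), and the 2 were Psme4 and Psmd1 (184 ± 10 to 130 ± 4.6 CPM; log2 -0.51, q = 0.00019). All 14 core subunits had a positive difference (median 0.39, 9 with q under 0.05), where 46.4% of all genes had a positive difference and 16.2% passed q as higher, while the cap had a median of 0.00. With the offset the core median was -0.02 and Psmb5 was at -0.68 (q = 0.00021), so the direction of the late core difference was set by this choice. Without the first OL library of dpi 42, whose labels conflict, 6 members were called. Compared with dpi 10, Psme4 was the only member called at dpi 42 (log2 -0.91, q = 0.0085), where 3.04% of all genes were called lower and 1.97% higher. Leaving out any 1 of these 6 libraries gave 2 to 4 calls. Compared with dpi 2, 5 members were called lower (Psme4, Psma1, Psma3, Psma5 and Psmd11) and Psmf1 higher, where the shares over all genes were 6.43% and 7.12%.

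In total RNA 4 of the 5 immunoproteasome genes were called higher at all 3 times, while few subunits of the constitutive core were called. Without the third naive OL library all 5 were called higher at these times. With the length and GC offset Psmb8, Psmb9 and Psme2 passed q at all 3 times, the last with a log2 of 0.38 at dpi 42, and Psme1 passed at dpi 10 (0.97, q = 0.0064) but not at dpi 2 (0.59, q = 0.083) or dpi 42 (0.72, q = 0.056). At dpi 2, 7 members were called higher (Psmb8, Psmb9, Psme1, Psme2, Psma4, Psmb2 and Psmc3ip) and none lower by the edgeR test, with 3 passing q and lower, where 14.3% of all genes were called higher and 17% lower, and 20.8% passed q and were lower. The core median was log2 0.22 and the cap median 0.06, while the median of all genes was -0.10. The 14 core subunits summed to 1120, 1140 and 1100 CPM in naive total RNA, 1270, 1430 and 1280 at dpi 2 and 1010, 927 and 984 at dpi 10, so dpi 2 lay above and dpi 10 below all naive libraries. Scaling decided the count: 17 were called higher with library sizes alone and 13 with TMM on a total RNA reference, which shift the median gene by 0.2 and 0.11. At dpi 10 the picture was a decrease: 4 were called higher, the same Psmb8, Psmb9, Psme1 and Psme2, and 7 lower (Psmc5, Psmc1, Psmc6, Psmd1, Psmd12, Psmd14 and the chaperone Psmd5), where 12.4% and 13.3% of all genes were called and 18.2% passed q as lower. The cap was lower, with 14 of 17 subunits significantly lower and a median of -0.42, led by the ATPases Psmc5 (279 ± 17 to 155 ± 11 CPM; log2 -0.85 ± 0.09, q = 6.5e-07) and Psmc1 (219 ± 2.3 to 137 ± 3.4 CPM; -0.68, q = 2.8e-06) and the lid deubiquitinase Psmd14 (-0.68, q = 0.00041). With the offset this decrease was larger (median -0.57, 15 of 17 lower). With library sizes alone 5 members were called higher and 1 lower, with TMM on a total RNA reference 4 and 3, and the cap medians were -0.24 and -0.27. Neuron markers moved in the same direction, their sum going from 7440 CPM in naive tissue to 3360 at dpi 10, and their part in the decrease was not tested. At dpi 42, Psmb8, Psmb9, Psme1 and Psme2 were called higher and Psmd14 lower (log2 -0.58), where 9.15% and 7.76% of all genes were called. Without the second total RNA library of dpi 42, whose labels conflict, 7 members were called lower.

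**Figure D3:**
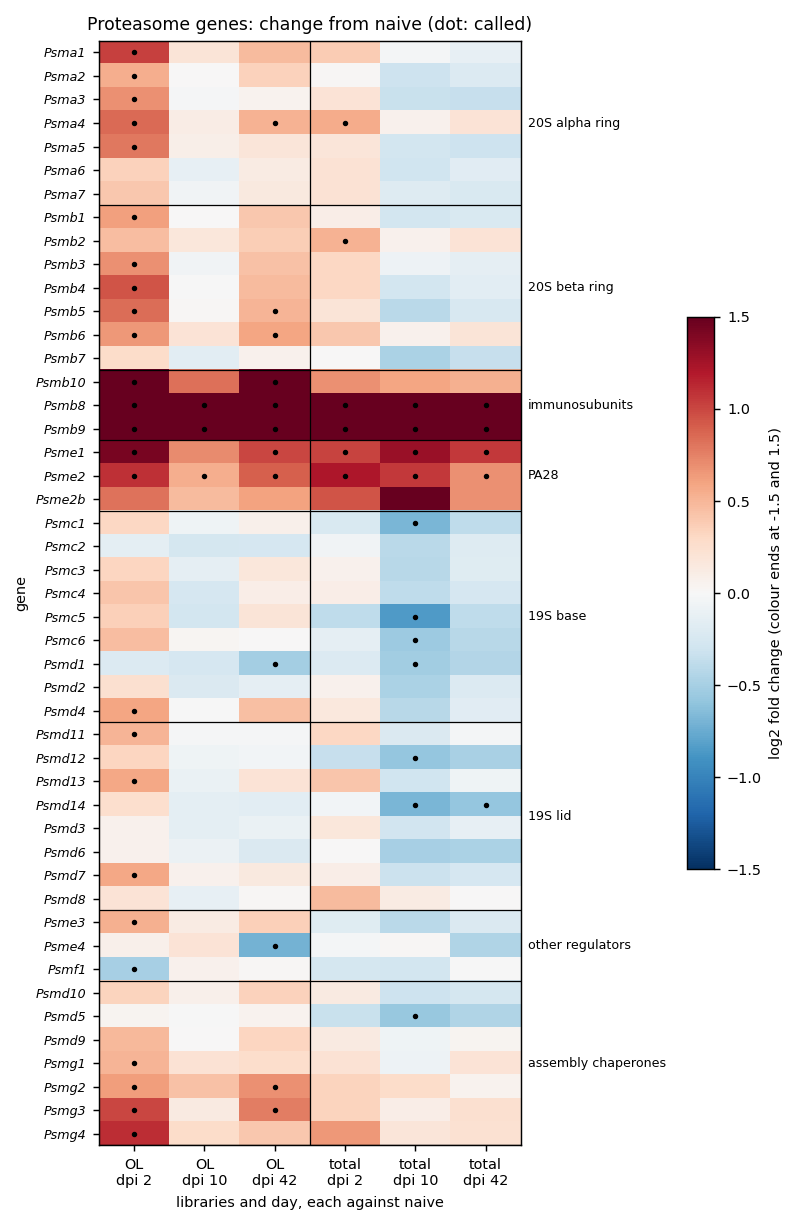
Log2 fold change from naive (colour, ends at -1.5 and 1.5) of 47 members ordered by role, in OL libraries (left 3 columns) and total RNA (right 3 columns) at dpi 2, 10 and 42; dots mark called changes. The core is red at dpi 2 in OLs (median 0.67), pale at dpi 10 (0.00), and the cap is blue at dpi 10 in total RNA (median -0.42), while Psmb8 and Psmb9 are dark red in all 6 columns.

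The share of immunosubunits among the catalytic subunits was described by the ratio of each to its constitutive counterpart in the same library, per kb of exon. In naive OL libraries Psmb8 was at 0.113%, 0.111% and 1.35% of Psmb5, and after injury at 1.87%, 3.26% and 3% (dpi 2), 2.64%, 4.36% and 4.59% (dpi 10) and 2.94%, 3.34% and 2.62% (dpi 42). In total RNA the mean was 1.53% in naive tissue and 10.6%, 20.3% and 17.9% after injury. The lowest injured OL library was above the highest naive one, and the highest injured OL library was below the lowest injured total RNA library (8.43%). Psmb9 to Psmb6 had lower values, 0.127% in naive OLs and 0.338%, 0.89% and 0.671% at dpi 2, 10 and 42, and in total RNA 0.602%, 2.37%, 4.96% and 3.02%. Psmb10 to Psmb7 had, per kb of exon, 11.9 ± 8.7% (SD, n = 3), 34 ± 11%, 23.2 ± 4.2% and 32.6 ± 8.8% in OLs and 41 ± 4.9%, 65 ± 4.5%, 85.2 ± 5.2% and 75.3 ± 8.6% in total RNA. The exon unions of Psmb8 and Psmb9 include retained introns, which lowers their values per kb. With the mean length of coding transcripts in its place, a choice made after seeing the data, Psmb8 was at 8.22%, 11.7% and 9% of Psmb5 in injured OLs, and Psmb10 at 15%, 10.2% and 14.4% of Psmb7, so the order of these 2 pairs at dpi 10 turned around. In total RNA the same choice put Psmb8 at 32.1%, 61.6% and 54.3% of Psmb5 and Psmb10 at 28.7%, 37.6% and 33.2% of Psmb7 at dpi 2, 10 and 42, the reverse of the order per kb of exon at all 3 times. Ratios between genes are thus approximate, and the changes within a pair do not depend on length.

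**Figure D4:**
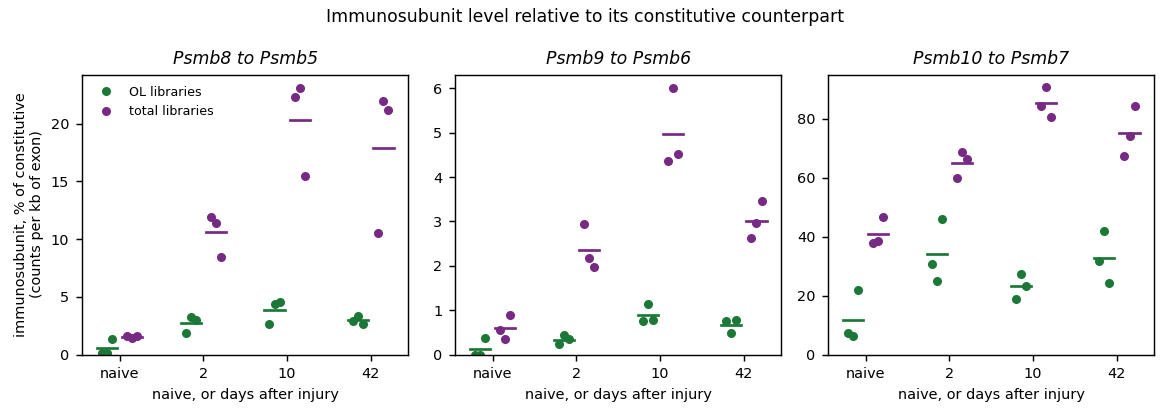
Level of each immunosubunit as a percentage of its constitutive counterpart (vertical axes, counts per kb of exon, linear from 0) in each library of naive tissue and at 2, 10 and 42 days after injury; green points are OL, purple points total RNA, lines are means of 3. OL libraries reach means of 3.86%, 0.89% and 34% at most for the 3 pairs and total RNA 20.3%, 4.96% and 85.2%.

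OL enrichment, the ratio of OL to total RNA of the same tissue, separated the classes. In naive tissue 8 members were called enriched and 8 depleted, where 21.3% and 27.2% of all genes were called and the median gene was at log2 -0.32. The constitutive core had a median of 0.29 (10 of 14 with q under 0.05 and higher, 1 lower, where the shares of all genes were 24.4% and 29.1%) and the cap of 0.24 (9 higher and 3 lower of 17). Psmd9, a base chaperone, had the largest value (28.4 ± 0.58 CPM in total RNA and 53.2 ± 6.8 in OLs; log2 0.90, q = 2.5e-05), next to the lid subunit Psmd13 (0.84, q = 3.6e-06) and Psmb2 (0.84, q = 1.1e-05). Psmd9 shares 25.5% of its exon bases with a gene on the opposite strand. The immunosubunits were the most depleted, with log2 -3.00 ± 0.86 for Psmb9 (q = 0.0093), -2.08 ± 0.56 for Psmb8 (q = 0.0067) and -1.72 ± 0.28 for Psmb10 (q = 0.00016). Without the third naive OL library Psmb8 was at -3.58 and Psmb10 at -2.22, and Psmb9 had 0 counts in both naive OL libraries that remained. Psme3, whose naive values were 125, 117 and 116 CPM in total RNA, was depleted by 1.35 on the log2 scale, that is at log2 -1.35 ± 0.13 (q = 1.4e-06), and Psme1 was at -0.87 (q = 0.016). Psme2, the partner of Psme1, was at 0.28 (q = 0.086).

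After injury the number of members called enriched was 22, 22 and 24 at dpi 2, 10 and 42, and the number depleted 4, 6 and 5, where 20.1%, 20.9% and 20.6% of all genes were called enriched and 25.2%, 24.9% and 24.9% depleted. The depleted ones included Psma8, which had at most 4 counts in OL libraries. The core median was 0.73, 0.53 and 0.83, and 7, 6 and 7 of the 7 constitutive beta subunits were called. The cap median was 0.46, 0.52 and 0.48. With scaling by library sizes alone, which moves the median gene by -0.50 to -0.58, the core median was -0.22 in naive tissue, 0.16 at dpi 2, -0.04 at dpi 10 and 0.33 at dpi 42. The cap median was then below 0 in all 4 groups. The sign of the enrichment thus rests on the TMM scaling for the cap, and for the core in naive tissue and at dpi 10. Under library sizes alone 0, 1, 0 and 5 members were called enriched and 14, 11, 13 and 9 depleted. Under TMM with a total RNA reference 12, 17, 11 and 17 were called enriched and 7, 5, 6 and 6 depleted. Of the 3 immunosubunits 2, 3 and 1 were called depleted at dpi 2, 10 and 42 with TMM, and their highest values were log2 -0.44, -1.3 and -0.55. Psmb8 was depleted at -1.24 (q = 0.036), -1.89 (q = 0.0038) and -1.66 (q = 0.0082) at these times. Under library sizes alone the median of the 5 immunoproteasome genes was -2.24 in naive tissue and -1.06, -1.97 and -1.45 after injury. That scaling lowers the median gene, so it cannot show whether their negative sign rests on the scaling. OL and total RNA were also purified with different kits, which cannot be told apart from the enrichment.

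**Figure D5:**
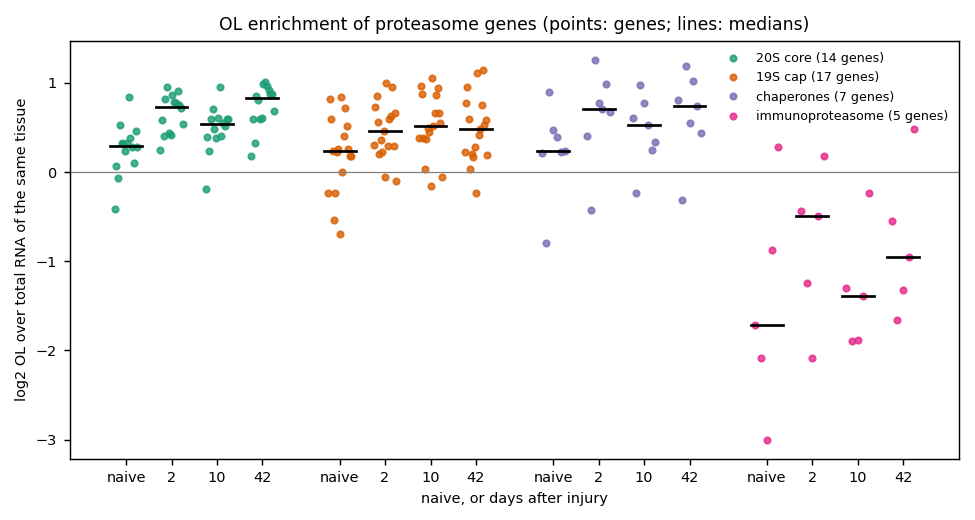
Log2 of OL over total RNA of the same tissue (vertical axis) for the 14 core, 17 cap, 7 chaperone and 5 immunoproteasome genes in naive tissue and at 2, 10 and 42 days after injury; each point is a gene and black lines are medians. Core medians run from 0.29 in naive tissue to 0.83 at dpi 42, and the immunoproteasome medians are negative in all 4 groups, from -1.72 to -0.49.

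The change in enrichment after injury, tested as an interaction paired by tissue, was positive for all called members: 12 at dpi 2, 4 at dpi 10 and 8 at dpi 42, where 6.98%, 4.17% and 4.07% of all genes were called higher and 5.44%, 2.94% and 3.34% lower. At dpi 2 they were 6 core subunits (Psma1, Psma2, Psma5, Psmb1, Psmb4 and Psmb5), 4 cap subunits (Psmc1, Psmc5, Psmc6 and Psmd12), Psme3 and Psmb10. Psmb10 had the largest value, log2 1.29 ± 0.38 (q = 0.043), and Psmb5 was at 0.64 ± 0.13 (q = 0.0053). Psmb5 also led at dpi 42 (0.76 ± 0.13, q = 0.0039), and Psmc1 at dpi 10 (0.62 ± 0.12, q = 0.0068). These counts depended on the scaling. TMM with a total RNA library as reference, which shifts the median gene by -0.22 to -0.23, gave 0, 0 and 1 called higher and 1, 1 and 0 lower at dpi 2, 10 and 42, and the length and GC offset gave 7, 4 and 3 called. Leaving out 1 library gave 6 to 12, 1 to 4 and 4 to 10 called members. The lowest of these came without the third library of dpi 2, without any of the first 2 naive or dpi 10 libraries, and without the second naive library. Without the third naive OL library Psmb10 (1.78, q = 0.0034), Psmb8 (2.34, q = 0.013) and Psmb5 (0.60, q = 0.021) all passed at dpi 2. Psmb10 (1.67, q = 0.0085), Psmb8 (1.92, q = 0.046) and Psmb5 (0.72, q = 0.013) passed at dpi 42 too. At dpi 10 Psmb10 (0.92, q = 0.12), Psmb8 (1.69, q = 0.09) and Psmb5 (0.38, q = 0.19) did not pass.

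Promoter letters were examined for the catalytic pairs. RefSeq promoter windows (GRCm38.p6), of which the 250 bases before the start site were searched on both strands, were matched for 42 of 50 members. The gamma activated site TTCNNNGAA, an interferon-gamma response element, was found in 4.44% of 45 member windows and 7.01% of 32817 windows of all genes. The interferon-stimulated response element was found in 6.67% and 2.97%, in no window of the 5 immunoproteasome genes but in those of Psmb3, Psmd4 and Psmd9. The windows of Psmb8, Psmb9 and Psme1 lie inside these genes as the GENCODE annotation used for exon lengths draws them. Bases before their GENCODE starts, which lie further upstream, were not searched for these genes. TGACNNNGC, the antioxidant response element to which NRF1 and NRF2 (Nfe2l1 and Nfe2l2) bind, was found in 11.1% and 10.2%. Shown are the stretches of 3 catalytic subunits that hold a match, with the match in capitals. The match begins 47 bases before the RefSeq start in Psmb5 (minus strand, chr14:54618023-54618245), 9 bases before it in Psmb6 (plus strand, chr11:70525107-70525356) and 97 bases before it in Psmb8 (plus strand, chr17:34198088-34198116). The Psmb8 stretch lies downstream of the GENCODE start of that gene (34197721).
Psmb5: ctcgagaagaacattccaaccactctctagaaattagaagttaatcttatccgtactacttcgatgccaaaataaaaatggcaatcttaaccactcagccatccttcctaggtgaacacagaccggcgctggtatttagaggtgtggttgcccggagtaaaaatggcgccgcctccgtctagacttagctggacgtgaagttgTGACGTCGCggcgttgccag
Psmb6: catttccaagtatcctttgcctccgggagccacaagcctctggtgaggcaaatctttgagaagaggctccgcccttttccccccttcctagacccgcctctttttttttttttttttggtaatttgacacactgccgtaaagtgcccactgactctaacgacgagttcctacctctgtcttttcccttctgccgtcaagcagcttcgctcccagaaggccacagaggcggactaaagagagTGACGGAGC
Psmb8: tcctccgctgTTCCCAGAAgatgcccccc

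A match is a description of letters and no evidence that a factor binds. Nfe2l1, the factor known to raise proteasome subunits when the proteasome is impaired, did not pass at any time in OLs (log2 0.00 at dpi 2, -0.17 at dpi 10 and 0.00 at dpi 42), and Nfe2l2 was lower at dpi 2 (-0.49, q = 0.016). Of 26 tested genes that act with the proteasome, 4 were called higher and 4 lower at dpi 2, where 15.9% and 16.4% of all genes were, so these shares were near the background (medians 0.00 for the list and for all genes). The higher ones included Pomp, Sem1, a small lid subunit outside the naming rule (1.29, q = 1.5e-07), and Rps27a, which encodes ubiquitin fused to a ribosomal protein (1.18). The lower ones included the ubiquitin ligase adaptor Fbxo7 (-1.45, q = 6.8e-08), the shuttle factor Ubqln2 (-1.19) and the ubiquitin activating enzyme Uba1 (-0.96). Uba1, Ubqln2, Ubqln1 and Fbxo7 passed q as lower at dpi 10 and dpi 42 too.

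The genes that work with the immunoproteasome in MHC class I loading and its control were mostly higher too. Of 15 tested, 10 were called higher and 0 lower in OLs at dpi 2 by edgeR (12 and 0 at q under 0.05), 9 and 0 at dpi 10 and 9 and 1 at dpi 42, with medians of log2 1.38, 0.99 and 1.04 against 0.00 over all genes, of which 15.9%, 8.55% and 13.7% were called higher. In total RNA 11, 12 and 10 of the 15 were called higher, with medians of 1.01, 1.60 and 1.19, where 14.3%, 12.4% and 9.15% of all genes were called higher. The OL enrichment of 4, 6 and 5 of them was called lower than in naive tissue at dpi 2, 10 and 42, and that of 2, 0 and 0 higher. Over all genes 5.44%, 2.94% and 3.34% were called lower in this comparison and 6.98%, 4.17% and 4.07% higher. Irf1, the transcription factor known to drive the immunosubunit genes, rose by log2 3.43 ± 0.34 (q = 8.4e-08) at dpi 2 and was at 3.06 and 3.12 later. The peptide transporter gene Tap1, which faces Psmb9, was at 1.80, 2.10 and 1.04, of which the last did not pass. H2-D1 (2.00, q = 3.7e-09), B2m (1.85, q = 1e-06) and Nlrc5 (2.32, q = 0.00012) rose at dpi 2 and passed at all 3 times. Ifngr1 (-0.02) did not pass at dpi 2, and Ifngr2 did (1.38, q = 1.6e-07). In naive tissue 3 of the 15 were called enriched in OLs and 5 depleted, with a median of 0.40 and 9 above 0. These counts were near the background, where 21.3% of all genes were called enriched and 27.2% depleted. Tap1 (-1.24), Tap2 (-1.25) and Irf1 (-1.78) were below 0, and H2-K1 was at 0.40.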

How the data were processed

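OL-Ribotag mice were studied with 12 OL polysome and 12 total RNA libraries of polyA RNA from 5 mm segments spanning the lesion. Input RNA was purified with an RNeasy Mini kit and OL RNA with a PicoPure kit. Per the study's methods the authors aligned reads to mm10 with STAR and deposited raw gene counts, for which the submitters' processing notes name HTSeq 0.10.0 and FastQC 0.10.1. Counts between genes that share exon bases are uncertain because the counting strand is not given in the sources used here.

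The counts were tested with edgeR 4.0.16 (quasi-likelihood, R 4.3.3, TMM factors of 0.742 to 1.29) over 17167 genes with at least 10 counts in sum. Benjamini-Hochberg adjustment of the p-values over these genes gave q, and a gene was called at q under 0.05 with a log2 change past 0.5. Changes over time used 8 group means. OL enrichment and its change used the tissue pool (12 pools) as a block, since both libraries came from the same tissue. Deviations from group means correlated at -0.0109 to 0.137 between libraries of the same pool and at -0.105 to 0.0502 between different pools. At dpi 2 and dpi 10 all values of the same pool were the higher ones. At dpi 42 those of the same pool (-0.0109 to 0.02) lay within the range of different pools (-0.028 to 0.0253), so the correlations do not show the pairing at that time. Values per kb used the union of exons of the GENCODE annotation of that build, and promoter letters came from RefSeq.

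The members and lists were chosen with earlier results of these data known. Named were the catalytic and immunoproteasome genes, for each comparison the 3 members with the largest and smallest log2 changes among those passing q, and the called members. Others named in the text were chosen after their values were seen. Alternatives were other scalings, filters, tests, an offset for length and GC content, blocks by replicate number, and leaving out libraries with the scaling factors of all 24 kept. The fits were tested on simulated data. Some genes of the lists are not reported here.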

Additional observations from a re-analysis of the deposited data

Results flagged for a closer look

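The OL enrichment of 12 members at dpi 2, 4 at dpi 10 and 8 at dpi 42 differed from that in naive tissue by the edgeR interaction test paired by tissue (q under 0.05, log2 past 0.5), and each such difference was positive.

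At dpi 2 the log2 difference was 0.66 for Psma1, 0.52 for Psma2, 0.62 for Psma5, 0.53 for Psmb1, 0.63 for Psmb4 and 0.64 for Psmb5 among the core subunits. It was 0.54 for Psmc1, 0.74 for Psmc5, 0.60 for Psmc6 and 0.64 for Psmd12 in the cap, 0.73 for Psme3 and 1.29 for Psmb10. At dpi 10 it was 0.62 for Psmc1, 0.57 for Psmc5, 0.60 for Psmc6 and 0.56 for the chaperone Psmd5. At dpi 42 it was 0.59 for Psma1, 0.54 for Psma2, 0.66 for Psmb1, 0.58 for Psmb3, 0.64 for Psmb4, 0.76 for Psmb5, 0.58 for Psmc5 and 0.62 for Psmd4.

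With the length and GC offset all 24 differences stayed positive. The smallest were those of Psmb5 (0.18 at dpi 2 and 0.21 at dpi 42) and Psmc5 at dpi 42 (0.21), and the largest was that of Psmb10 (1.01). Without the third naive OL library they ran from 0.48 (Psmb1, dpi 2) to 1.78 (Psmb10, dpi 2), and those of Psmc6 at dpi 2 (q = 0.11) and dpi 10 (q = 0.15) and of Psma1 (q = 0.07) and Psmb3 (q = 0.078) at dpi 42 no longer passed.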

How the results depend on the processing

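Counts of called members are given in either direction. In OLs at dpi 2 (25) the length and GC offset gave 11. At dpi 10 (3) it gave 5 and a fit of the compared groups alone 0. At dpi 42 (12) the compared groups alone gave 7 and leaving out the 2 libraries with conflicting labels 6. For dpi 10 against dpi 2 (20) the offset gave 9. For dpi 42 against dpi 10 (1) library sizes alone gave 4, the compared groups alone 0 and leaving out the 2 libraries 2, and for dpi 42 against dpi 2 (6) the compared groups alone gave 2. In total RNA library sizes alone gave 17 and 6 at dpi 2 (7) and dpi 10 (11), TMM with a total RNA reference 13 and 7, the offset 20 at dpi 10 and 10 at dpi 42 (5), and leaving out the 2 libraries 11 at dpi 42. OL enrichment under library sizes alone had 12, 13 and 14 calls at dpi 2 (26), dpi 10 (28) and dpi 42 (29), and 17 at dpi 10 with a total RNA reference. For the change in enrichment (12, 4 and 8) a total RNA reference gave 1 at each time, the offset 7 at dpi 2 and 3 at dpi 42, library sizes alone and the fit with no replicate block 2 at dpi 10, and the compared groups alone 3 at dpi 42. The cause of these shifts was not tested.

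Directions turned as follows. With the offset the log2 change in OLs was -0.39 for Psmb5 at dpi 2, -0.68 for Psmb5 and -0.03 for Psmb6 at dpi 42, and -0.04 for Psmb5 at dpi 42 against dpi 10, and the medians were -0.05 for the chaperones at dpi 10 and -0.02 for the core at dpi 42. In total RNA at dpi 2 the offset gave -0.07 for Psmb6, -0.04 for the core median and -0.14 for that of the chaperones, which was -0.02 without pool 2 or its total RNA library and 0.34 at most without 1 library. Under library sizes alone naive OL enrichment had medians of -0.22 (core), -0.27 (cap) and -0.27 (chaperones), with Psmb6 at -0.05 and Psmb7 at -0.24. Under that scaling the cap median was -0.11 and Psmb7 -0.03 at dpi 2, the core, cap and chaperone medians -0.04, -0.06 and -0.05 and Psmb5 -0.05 at dpi 10, and the cap median and Psme2 -0.02 at dpi 42. A total RNA reference gave -0.11 for the chaperone median of the change in enrichment at dpi 10.

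Leaving out 1 library at a time gave 22 to 25, 2 to 4 and 6 to 15 calls in OLs at dpi 2, 10 and 42, 16 to 21 for dpi 10 against dpi 2, 2 to 4 for dpi 42 against dpi 10 and 6 to 7 for dpi 42 against dpi 2. It gave 5 to 8, 11 to 13 and 4 to 11 in total RNA, 12 to 17, 23 to 26, 20 to 27 and 26 to 29 for enrichment in naive tissue and at dpi 2, 10 and 42, and 6 to 12, 1 to 4 and 4 to 10 for its change. The log2 rise of the Psmb8 to Psmb5 ratio in OLs ran from 1.89 to 4.60, 2.41 to 5.11 and 2.02 to 4.73 at dpi 2, 10 and 42, highest without the third naive library each time. Without that library Psmb9 to Psmb6 gave no value. Replicate numbers were no pairing of mice across times. A replicate block by number gave 24, 3 and 12 calls in OLs, 20, 1 and 6 between times and 7, 11 and 5 in total RNA, and of the calls of named genes 74 held and 1 was lost. Libraries of the same number correlated at -0.143 to 0.248 in OLs and those of other numbers at -0.174 to 0.208. Depth limited Psma8, Psmb11, Psme2b and naive Psmb9.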
